A study of Mus musculus with 8 samples.

Results

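The cytochrome P450 genes of families 1 to 4 were compared between livers with and without Hmgb1 in hepatocytes. Members were the genes named Cyp followed by a family digit from 1 to 4, 1 subfamily letter and a number, and measured by a probe set assigned to that gene alone. There were 65 such genes among 19938 genes tested, each with 1 probe set, of the 76 gene symbols of that form in the RefSeq gene table. A further 7 (Cyp2a4, Cyp2a5, Cyp2c40, Cyp2c69, Cyp3a59, Cyp4a32 and Cyp4v3) lay only on probe sets shared by several genes, and Cyp2j7, Cyp2j8, Cyp4a29 and Cyp4f17 had no probe set named here. Names that end in a letter, such as Cyp4a12a, lie outside the rule.

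RNA of 8 liver samples from male mice 8 weeks old was read on 8 arrays. In 4 samples, called deleted 1 to 4 here, floxed Hmgb1 had been removed by Albumin-Cre, a recombinase whose promoter is active in hepatocytes, so that other liver cells keep the gene. The 4 controls, called control 1 to 4, carried floxed Hmgb1, and only the titles of the deleted group name Cre, so effects of Cre cannot be told apart from effects of the deletion. The treatment text gives a C57Bl/6 background after 5 backcrosses and whole liver, whereas the characteristics give Balb/c and liver stellate cells. Hepatocyte RNA was abundant on the arrays: 13 hepatocyte markers had mean log2 intensities of 10.84 to 13.88, and 11 stellate cell markers 6.84 to 11.5. Whether the 8 arrays stand for 8 animals is not said in the labels, and the p-values therefore rest on a spread that may be technical.

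P450 enzymes are heme proteins of the endoplasmic reticulum that insert an oxygen atom into fat-soluble molecules with electrons from NADPH. Families 1 to 3 act mostly on drugs, pollutants and steroids, and family 4 on fatty acids and eicosanoids, the signalling lipids made from arachidonic acid. Hepatocytes make most of them, largely near the central vein, and nuclear receptors such as CAR, PXR and PPARalpha, the aryl hydrocarbon receptor and the growth hormone pattern of each sex set their levels.

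All values are log2 intensities, and differences are deleted minus control, so that 1 unit is a doubling. Hmgb1 itself read 4.91, 4.20, 4.53 and 4.74 on deleted 1 to 4 and 5.35, 5.42, 5.45 and 5.78 on control 1 to 4, and fell by 0.91 (SE 0.14, limma adjusted p = 0.0216). Its probe set was dim even on the controls, with a mean of 5.50 there against a median level of 6.53 over all genes. The labels do not say which exons were deleted, nor whether the Hmgb1 probe set lies in them. The hepatocyte product albumin lay between 13.93 and 14.03 on 7 arrays and at 13.26 on deleted 4. The highest value of any probe set was also lowest on deleted 4, at 13.58 against 14.23 to 14.46 on the other arrays. Control 1 stood apart on the first principal component, at −26.6 against −11.4 to 11.7 for the other arrays. Of the hepatocyte markers, 12 of 13 were lower with 0 past the threshold, and their mean per array ran from 12.58 to 12.98 on deleted and from 12.95 to 12.99 on control arrays. These 13 genes had means between 10.84 and 13.88, and of all 596 genes with a mean above 11, 70.8% were lower. Without deleted 4, 8 of the 13 were lower and 5 higher, with a median of −0.041. Endothelial markers were lower for 10 of 10, with means of 8.87 to 9.0 against 9.13 to 9.28, and Clec4g passed. Of the cholangiocyte markers 3 of 5 were lower (5.68 to 5.92 against 5.92 to 5.99), and of the erythroid markers 5 of 7 (7.31 to 7.42 against 7.46 to 7.54), with 0 past the threshold in each. Stellate cell, macrophage, lymphocyte and neutrophil lists overlapped between the groups, and only 1 of 9 lymphocyte and 0 of 9 neutrophil markers lay above the median level of all genes. The part of these markers in the P450 values was not tested.

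A single P450 gene passed the threshold of 0.05 on the limma p adjusted over all 19938 genes. Cyp2c55, an enzyme that makes hydroxy fatty acids from arachidonic acid and is inducible through CAR and PXR, fell by 0.72 (SE 0.13, adjusted p = 0.0337), or 1.65-fold. It was 1 of 65 members, where 0.692% of all genes passed in either direction, 0.396% as lower and 0.296% as higher. If the samples are whole liver, as the treatment text says, fewer cells of a type and less RNA per cell cannot be told apart. Of the 65 members 46 were lower and 19 higher, with a median difference of −0.038 against 0 for all genes, of which 49.8% were lower. At an unadjusted limma p under 0.05, 14 members were lower and 3 higher, where 4.53% and 4.93% of all genes were. Above the median level these were 13 and 2 of 41 members, and 712 and 856 of all 9968 genes. Above a mean of 11 they were 7 and 1 of 20 members, and 91 and 18 of all 596 genes. Of the 41 members above the median level 30 were lower and 4 lay below the controls on every deleted array, where 48.4% and 3.33% of all genes as bright did.

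Promoters are shown for Cyp2c55 and for Cyp1a2, whose deleted arrays all lay below the controls, and for Cyp2b9 and Cyp2b10, a pair from the same subfamily that varied widely among the arrays of both groups. Each is the stretch of 250 bases before the annotated start in RefSeq (GRCm38.p6), 5′ to 3′ in the direction of the gene: chr19:39006769-39007018 (+) for Cyp2c55, chr9:57683656-57683905 (−) for Cyp1a2, chr7:26173159-26173408 (+) for Cyp2b9 and chr7:25897408-25897657 (+) for Cyp2b10. Capitals mark matches on either strand to TATAAA (the TATA box) or AGGTCA (a half-site of nuclear receptors); GTTAAT (a half-site of HNF1) and TTCNNNGAA (the palindrome bound by STAT5) were searched too and have no match in these 4 windows.
Cyp2c55: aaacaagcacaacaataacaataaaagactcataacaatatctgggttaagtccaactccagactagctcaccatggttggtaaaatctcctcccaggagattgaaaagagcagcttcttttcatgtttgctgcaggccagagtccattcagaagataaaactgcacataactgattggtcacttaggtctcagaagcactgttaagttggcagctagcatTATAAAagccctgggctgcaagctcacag
Cyp1a2: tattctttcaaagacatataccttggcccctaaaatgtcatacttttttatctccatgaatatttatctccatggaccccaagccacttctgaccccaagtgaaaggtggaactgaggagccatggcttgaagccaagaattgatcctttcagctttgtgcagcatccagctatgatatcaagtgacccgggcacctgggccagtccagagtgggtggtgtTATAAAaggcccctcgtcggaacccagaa
Cyp2b9: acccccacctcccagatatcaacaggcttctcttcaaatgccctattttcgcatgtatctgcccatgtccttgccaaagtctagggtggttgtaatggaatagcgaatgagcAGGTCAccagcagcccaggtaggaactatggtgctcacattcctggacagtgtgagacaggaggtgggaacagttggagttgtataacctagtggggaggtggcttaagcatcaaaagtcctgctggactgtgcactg
Cyp2b10: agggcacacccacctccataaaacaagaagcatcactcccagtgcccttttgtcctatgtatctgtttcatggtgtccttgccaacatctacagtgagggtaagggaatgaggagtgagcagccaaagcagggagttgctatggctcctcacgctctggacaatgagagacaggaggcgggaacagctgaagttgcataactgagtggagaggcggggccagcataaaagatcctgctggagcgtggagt
The letters TATAAA end 24 bases before the start in both Cyp2c55 and Cyp1a2, and Cyp2b9 holds AGGTCA between 138 and 133 bases before its start. Cyp2b10 has none of the searched motifs here, although it matches Cyp2b9 at 186 of 262 aligned positions (71.0%). The 53 members that have a window have 60 windows in all. TATAAA was found in 12.4% of all 32851 promoter windows and in 21 of the 60, AGGTCA in 14% and 15 of the 60, GTTAAT in 6.43% and 4 of the 60, and TTCNNNGAA in 7.02% and 4 of the 60. A match is a description of the letters and not a binding site.

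Cyp2c55 was measured at 5.69, 6.05, 5.44 and 5.88 on deleted 1 to 4 and at 6.25, 6.66, 6.55 and 6.49 on control 1 to 4. Every deleted array lay below every control, with the narrowest gap between deleted 2 and control 1. The gene was dim, with a mean of 6.13 below the median of all genes (6.53), so the filter on dim genes removed it. Its call was lost without deleted 1, deleted 3 or deleted 4 and without control 2, control 3 or control 4, with differences of −0.76 to −0.61 and adjusted p between 0.0728 and 0.131. It was also lost when all probe sets were tested (0.0974), when the arrays were quantile-normalized once more (0.0603) and when each array was centred on its median (0.0921).

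**Figure D1:**
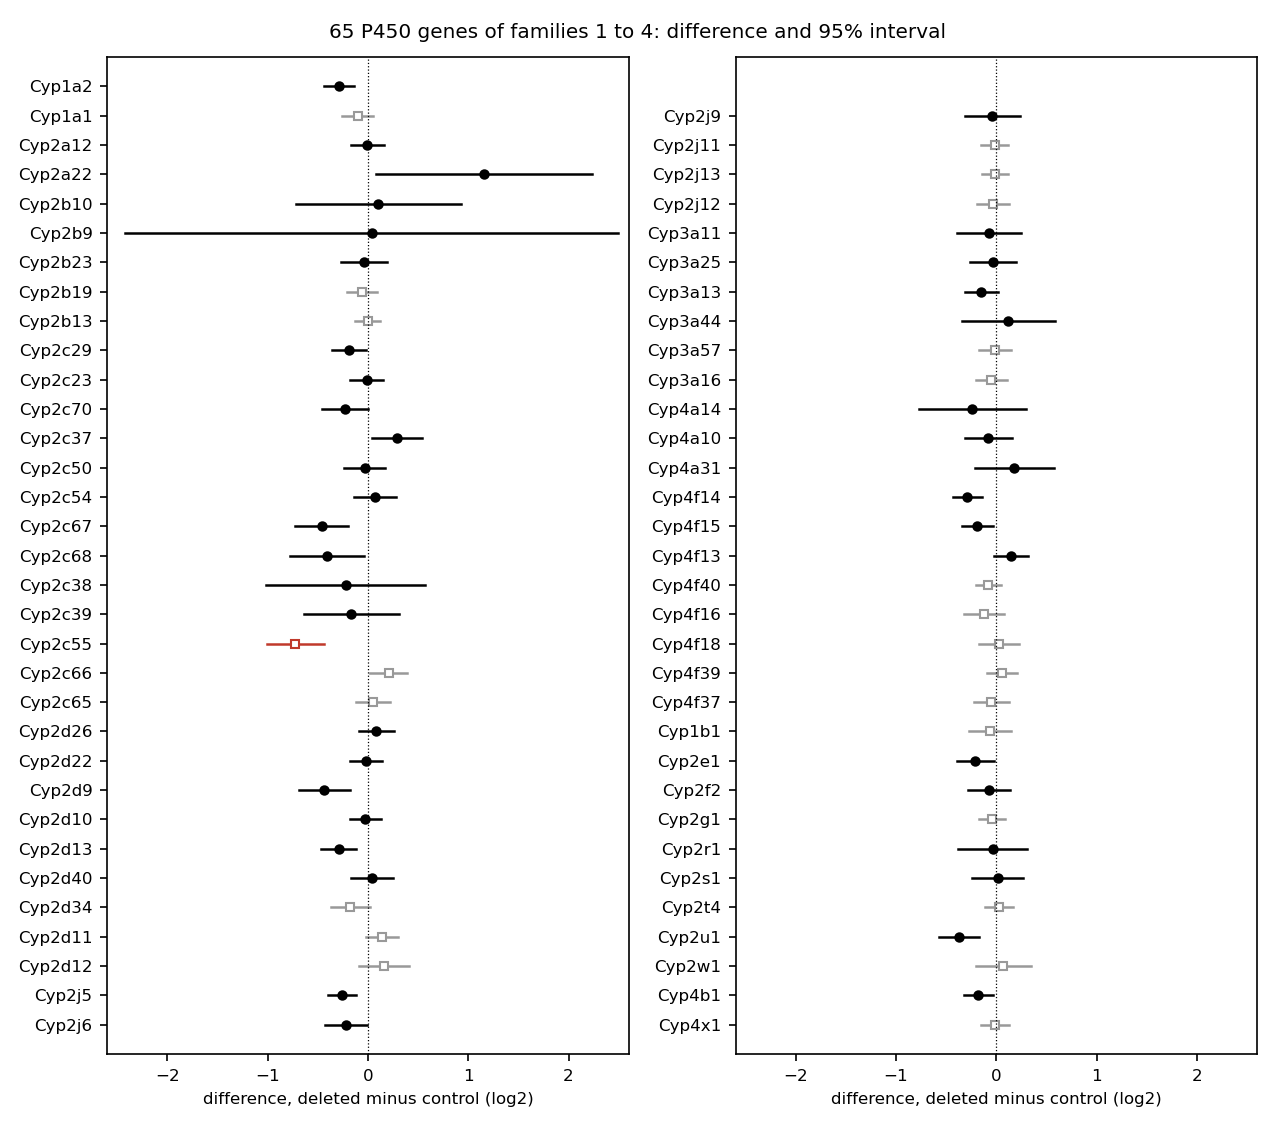
Difference between deleted and control arrays for each of the 65 P450 genes (log2, point) with the 95% interval of the limma fit (line), n = 4 arrays per group, ordered by subfamily and then by level, with genes outside the subfamilies compared at the end. Filled black points are genes above the median level of all genes, open grey squares are dimmer genes, and the red square is Cyp2c55 (−0.72), the 1 gene past the threshold. The widest interval is that of Cyp2b9, from −2.42 to 2.49.

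Family 1 holds the targets of the aryl hydrocarbon receptor, and all 3 of its genes were lower with 0 past the threshold (limma, 1 at an unadjusted p under 0.05). Cyp1a2, which oxidises caffeine and aromatic amines, was measured at 11.85, 12.03, 12.00 and 11.77 on deleted 1 to 4. The controls were closely grouped at 12.21, 12.19, 12.20 and 12.21, all above the deleted arrays. The difference was −0.29 (SE 0.069, adjusted p = 0.111). Cyp1a1 (−0.10) and Cyp1b1 (−0.062) were dim, with means of 5.50 and 5.22.

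The Cyp2c subfamily, epoxygenases and hydroxylases of arachidonic acid and drugs, was the largest, with 13 genes. Of these 9 were lower and 4 higher, with a median of −0.17 and Cyp2c55 the 1 past the threshold. This median moved to −0.011 with array weights and ranged from −0.22 without deleted 2 to −0.017 without deleted 3. Cyp2c67 and Cyp2c68, close relatives of Cyp2c40 and Cyp2c69, had the largest differences after Cyp2c55. For Cyp2c67 the deleted arrays gave 11.16, 11.47, 10.96 and 11.17 and the controls 11.39, 11.68, 11.89 and 11.65, a difference of −0.46 (SE 0.12, adjusted p = 0.149). The groups overlapped, since control 1 lay below deleted 2. Cyp2c68 differed by −0.41 (adjusted p = 0.439), with deleted arrays between 9.04 and 9.87 and controls between 9.56 and 10.06. A probe set shared by Cyp2c40, Cyp2c67, Cyp2c68 and Cyp2c69 had a difference of −0.29 (adjusted p = 0.368 in the fit over all probe sets), and signal of such near-identical genes may be split between probe sets.

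Other bright Cyp2c genes went in different directions, and none of those named next passed. Cyp2c29, an epoxygenase inducible through CAR, had a difference of −0.19 (adjusted p = 0.463), with controls between 12.69 and 12.74 and deleted 2, at 12.75, above them. Cyp2c37, another CAR-inducible enzyme of arachidonic acid, was higher by 0.29 (SE 0.11, adjusted p = 0.413), with deleted values of 11.99, 12.40, 11.80 and 11.98 and control values of 11.87, 11.69, 11.70 and 11.76. Its groups overlapped through deleted 3 and control 1, and the difference was 0.17 without deleted 2. Cyp2c70, which makes the muricholic acids of mouse bile, had −0.23 (adjusted p = 0.555), the epoxygenase Cyp2c23 −0.013, Cyp2c50 −0.033 and Cyp2c54 0.070. The last turned to −0.023 without deleted 2.

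Of 9 Cyp2d genes 5 were lower and 4 higher, with a median of −0.020 and 0 past the threshold (limma, 2 at an unadjusted p under 0.05). The median was 0.034 after quantile normalization again and 0.014 without deleted 4, and also lay above 0 without control 2, 3 or 4. Cyp2d9, the male-biased testosterone 16-alpha-hydroxylase, was at 11.36, 10.87, 11.31 and 10.99 on deleted 1 to 4 and at 11.37, 11.65, 11.65 and 11.60 on control 1 to 4. The groups did not overlap but came close at deleted 1 and control 1, with a difference of −0.44 (SE 0.11, adjusted p = 0.153). Cyp2d13 differed by −0.29 (SE 0.080, adjusted p = 0.175), with deleted values between 10.46 and 10.63 and controls between 10.61 and 10.95. Cyp2d26, the brightest of the subfamily, was at 0.085 (95% interval −0.086 to 0.26; 0.032 without deleted 2), Cyp2d22 at −0.020 and Cyp2d10 at −0.025.

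All 6 Cyp2j genes, which include epoxygenases of arachidonic acid, were lower, with a median of −0.035 and 0 past the threshold (limma, 2 at an unadjusted p under 0.05). Without deleted 4 only 3 of the 6 were lower, and 4 without deleted 1 or control 2. Of the 6, 3 lay above the median level of all genes, and those had differences of −0.26 (Cyp2j5), −0.22 (Cyp2j6) and −0.038 (Cyp2j9). Cyp2j5 was measured at 12.09, 12.14, 12.05 and 11.95 on deleted 1 to 4 and at 12.22, 12.34, 12.35 and 12.36 on control 1 to 4. The groups did not overlap (SE 0.064, adjusted p = 0.126). Without control 1, the lowest control, its difference was −0.29 (adjusted p = 0.0487).

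Among subfamilies with few genes, Cyp2u1, a hydroxylase of long-chain fatty acids, differed by −0.38 (SE 0.091, adjusted p = 0.114). Its deleted values were 8.94, 8.74, 8.56 and 8.69 and its control values 8.93, 9.19, 9.19 and 9.12, so that deleted 1 reached control 1. Cyp2e1, the pericentral oxidase of ethanol and acetaminophen, had the brightest probe set of the members and a difference of −0.21 (adjusted p = 0.444) and its lowest value, 12.83, on deleted 4. The periportal Cyp2f2 differed by −0.070, and its 12.71 on deleted 4 lay below 12.99 to 13.16 on the other arrays. Cyp2r1, a vitamin D 25-hydroxylase, had −0.035 and Cyp4b1 −0.18 (adjusted p = 0.344).

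Of 6 Cyp3a genes, the steroid and drug hydroxylases controlled by PXR, 5 were lower and 1 higher, with a median of −0.040 and 0 past the threshold (limma, 0 at an unadjusted p under 0.05). After quantile normalization again 3 of the 6 were lower with a median of 0.0016, and without deleted 3, 2 were lower with a median of 0.0050. All 6 were lower without control 1, with a median of −0.13, and with array weights, with a median of −0.058. The brightest, Cyp3a11, read 12.62, 12.80, 12.34 and 12.44 on deleted 1 to 4 and 12.17, 12.78, 12.81 and 12.72 on control 1 to 4. The groups overlapped throughout, and its difference was −0.070 (95% interval −0.39 to 0.25). It turned to 0.019 after quantile normalization again and was −0.22 without control 1. Cyp3a44, at 0.12, turned to −0.13 without control 1, where it read 7.03 against 8.00 to 8.10 on the other controls.

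In family 4, the 3 Cyp4a genes are fatty acid hydroxylases driven by PPARalpha. Their differences were −0.24 for Cyp4a14, −0.078 for Cyp4a10 and 0.18 for Cyp4a31, with adjusted p between 0.926 and 0.964, and 0 passed (limma, 0 at an unadjusted p under 0.05). Leaving out deleted 2 moved Cyp4a14 to −0.50 and Cyp4a31 to 0.023, leaving out deleted 1 moved Cyp4a14 to −0.032, and leaving out control 3 moved Cyp4a31 to 0.29. Ppara itself, the receptor, fell by 0.49 (SE 0.088, adjusted p = 0.0367), with deleted values between 10.19 and 10.41 and controls between 10.53 and 10.88. Counted with the enzymes' partners, other regulators and P450s of higher families, Ppara was the 1 call, and that count was 0 with all probe sets tested or arrays centred, 3 without control 1, and 0 without any 1 of the other 7 arrays. A probe set shared by Cyp4a10, Cyp4a31 and Cyp4a32 differed by 0.030 (adjusted p = 0.987 over all probe sets).

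Of 8 Cyp4f genes, which inactivate leukotrienes and hydroxylate long fatty acids, 5 were lower and 3 higher, with a median of −0.063 and 0 past the threshold (limma, 2 at an unadjusted p under 0.05). Cyp4f14, which acts on leukotriene B4, was at 11.16, 11.40, 11.29 and 11.24 on deleted 1 to 4 and at 11.49, 11.60, 11.57 and 11.58 on control 1 to 4. The groups did not overlap, and the difference of −0.29 (SE 0.066) had the smallest adjusted p after that of Cyp2c55, 0.0960. Cyp4f15 had −0.19 (adjusted p = 0.383), whereas Cyp4f13 had 0.15 (adjusted p = 0.634), where control 1 lay at 10.46 against 10.69 to 10.71 on the other controls and without which the difference was 0.087.

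**Figure D2:**
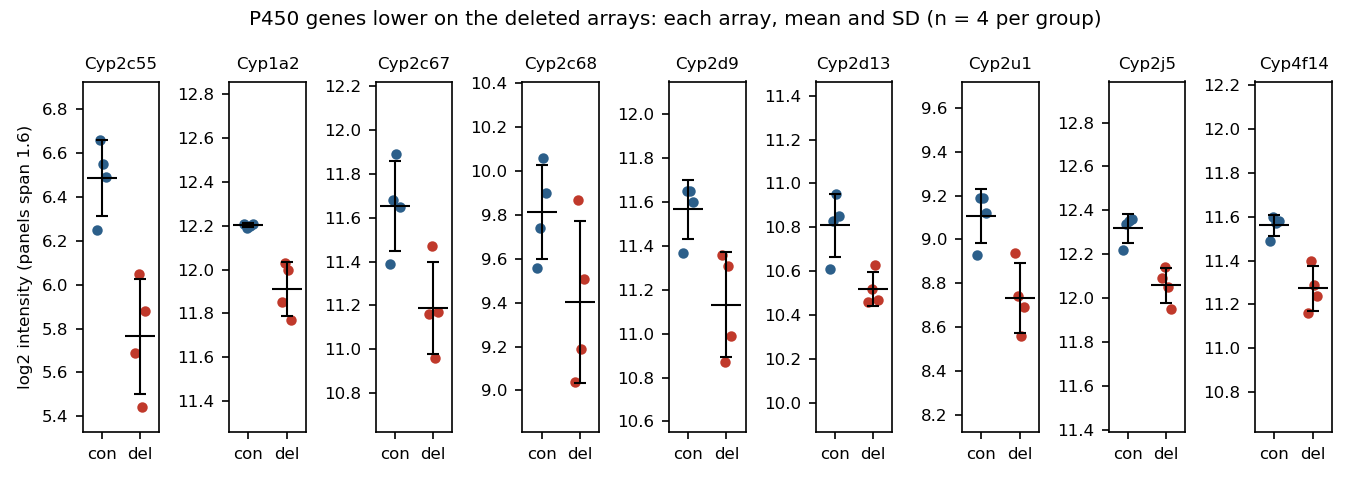
Log2 intensity on each array for Cyp2c55 and the P450 genes with the 8 largest negative differences above the median level (points; con, floxed control; del, Hmgb1 deleted), with the mean and SD of each group (black, n = 4). Each panel spans 1.6 log2 units around the gene's own mean. The groups are apart for Cyp2c55, Cyp1a2, Cyp2d9, Cyp2j5 and Cyp4f14 and overlap for Cyp2c67, Cyp2c68, Cyp2d13 and Cyp2u1.

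All deleted arrays lay below all controls for 5 of the 65 genes (Cyp2c55, Cyp1a2, Cyp2d9, Cyp2j5 and Cyp4f14), and above them for 0. Over all genes these shares were 2.30% and 3.28%. The count of members past the threshold rested on single arrays: it was 6 without control 1, when Cyp2c67, Cyp2c70, Cyp2d13, Cyp2j5 and Cyp2u1 joined Cyp2c55, and 0 without any 1 of deleted 1, 3 and 4 and control 2, 3 and 4. Array weights, which gave control 1 the least weight (0.254), called 9 members, all of them lower. The 95% intervals of 54 members (83.1%) lay within 1.5-fold of no difference and those of 61 (93.8%) within 2-fold, against 97.2% and 99.4% of all genes.

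Bright genes in general were lower more often than higher, and the bright P450 genes were among them. Of the 20 members with a mean above 11, 17 were lower, against 70.8% of all 596 genes as bright. Their median difference was −0.074, against −0.065 for all genes as bright. The groups were apart as lower for 4 of these 20, against 8.72% of the 596. With quantile normalization applied again, 10 of the 20 were lower with a median of −0.0030, and 49.8% of the 596 were lower with a median of 0. That step gives all arrays the same distribution of values, so a shift of the brightest genes as a set is removed by construction. Without deleted 4, which had the lowest albumin, 12 of the 20 and 59.1% of the 596 were lower.

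**Figure D3:**
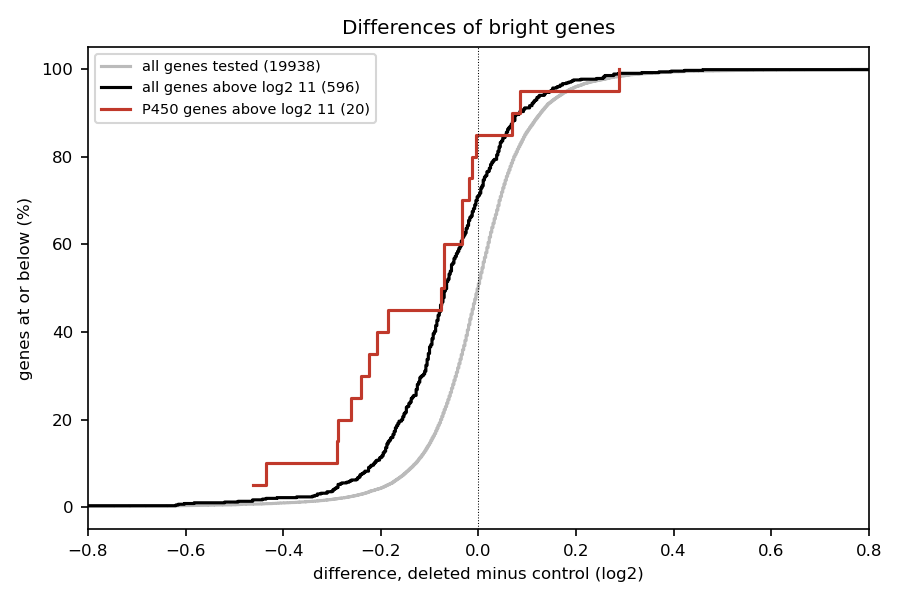
Cumulative share of genes (%) against the difference between deleted and control arrays (log2), for all 19938 genes (grey), the 596 genes with a mean above log2 11 (black) and the 20 P450 genes among them (red). Both bright sets cross 0 above the middle of the scale, with 70.8% of all bright genes and 85.0% of bright P450 genes below 0. Their medians are −0.065 and −0.074.

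Several P450 genes varied more between arrays of a group than between the groups. Cyp2b9, a steroid hydroxylase known as higher in female than in male liver, had the largest SD within groups of all 19938 genes, 2.11. It read 6.30, 11.08, 7.51 and 9.85 on deleted 1 to 4 and 10.84, 7.04, 6.78 and 9.93 on control 1 to 4. Deleted 2 and 4 and control 1 and 4 were high and the other 4 low, a range of 27.5-fold, and the difference between groups was 0.038 (95% interval −2.42 to 2.49). Cyp2a22 ranked 12 of all genes by this SD (0.917) and read 7.36, 9.84, 7.98 and 8.47 on deleted 1 to 4 and 8.19, 6.76, 6.54 and 7.53 on control 1 to 4. It had the largest positive difference of any member, 1.16 (SE 0.49, adjusted p = 0.469), with deleted 1 and deleted 3 below control 1, and a difference of 0.68 without deleted 2. Cyp2b10, the CAR target, ranked 30, at 9.79, 10.66, 9.43 and 10.08 on deleted 1 to 4 and 11, 9.36, 9.13 and 10.05 on control 1 to 4. Its difference of 0.11 (adjusted p = 0.992) turned negative without deleted 2, control 2 or control 3.

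The arrays that were high differed among the 10 members with the largest SD, which were picked for their spread. Deleted 2 and control 4 were each among the 4 highest arrays for 9 of the 10, and deleted 4, control 1 and control 3 for 6 each. Control 1 was among the 3 highest for Cyp2b9, Cyp2a22, Cyp2b10, Cyp2c38, Cyp4a14 and Cyp2c39 but the lowest array for Cyp3a44 and Cyp2r1. Deleted 4, high for Cyp2b9, ranked 5 of 8 for Cyp2c38 and Cyp4a14 and 7 for Cyp2c39. Cyp2c38 ranged from 7.90 to 9.47 and Cyp4a14 from 11.21 to 12.60, and Cyp2c39 from 6.52 to 7.53. Cyp2b13 and Cyp2b19, of the same subfamily, stayed between 4.31 and 4.45 and between 5.75 and 6.02, below the median level. All arrays are labelled male, and Xist, the transcript of the silenced X chromosome, lay between 4.44 and 4.86 on all 8, while the Y-linked Eif2s3y lay between 7.96 and 8.51. Cyp17a1, a female-biased P450 outside the 4 families, was highest on control 1 and control 4, at 11.39 and 10.32 against 7.42 to 8.67 on the other arrays. On deleted 2 and deleted 4, which were high for Cyp2b9, it read 8.47 and 8.56.

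**Figure D4:**
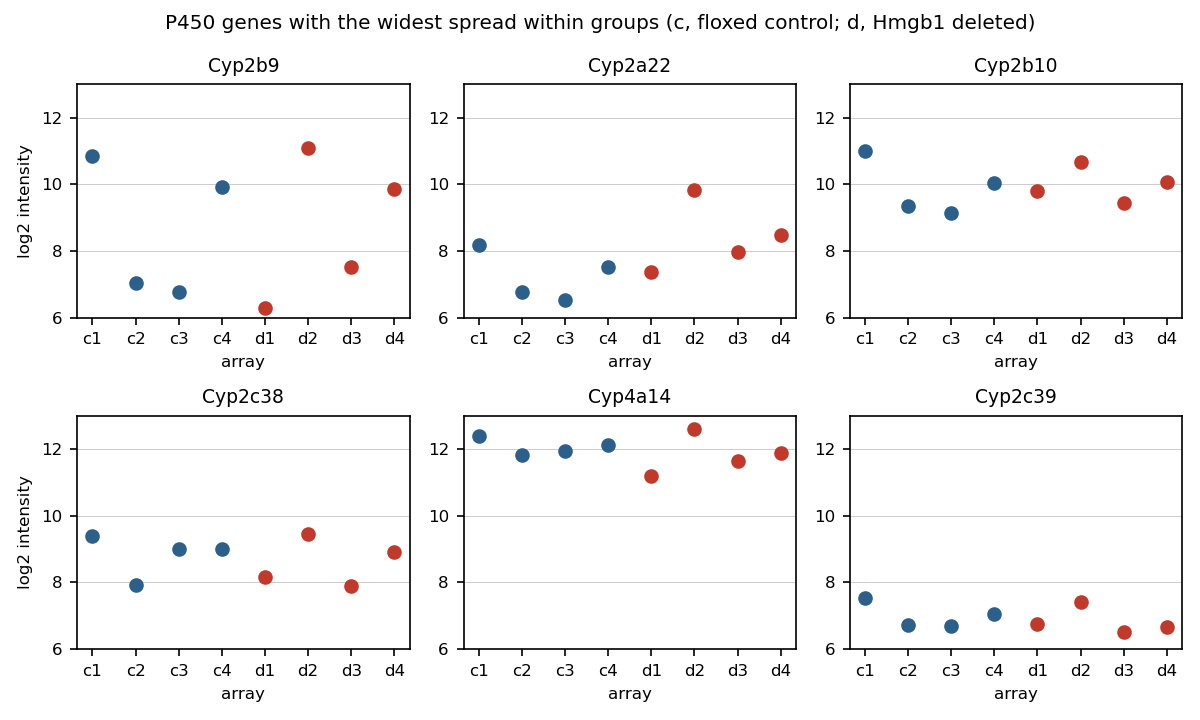
Log2 intensity of the 6 P450 genes with the largest SD within groups on each array (c1 to c4, floxed control, blue; d1 to d4, Hmgb1 deleted, red), on a common axis from 6 to 13. For Cyp2b9, d2 (11.08), c1 (10.84), c4 (9.93) and d4 (9.85) are high in both groups, and the other 4 lie between 6.30 and 7.51.

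**Figure D5:**
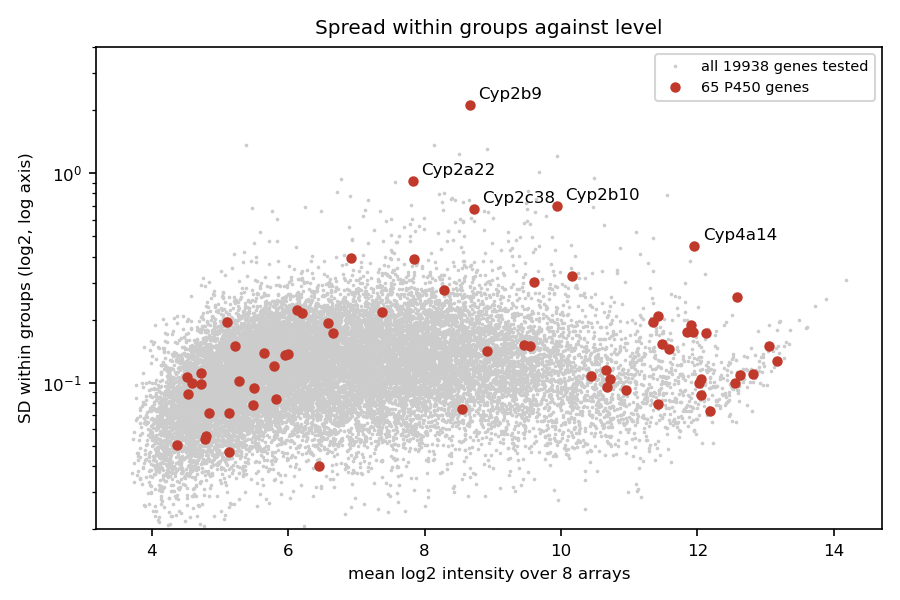
SD within groups (log2 units, log axis) against the mean log2 intensity over 8 arrays for all 19938 genes (grey) and the 65 P450 genes (red). Cyp2b9 has the largest SD of all genes (2.11), and Cyp2a22 (0.917), Cyp2b10 (0.698), Cyp2c38 (0.676) and Cyp4a14 (0.447) also lie above most genes of their level.

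By regulation, all 4 male-biased P450s listed were lower with 0 past the threshold (limma, 2 at an unadjusted p under 0.05), with a median of −0.33. They are Cyp2d9, Cyp4a12a (−0.13), Cyp4a12b (−0.23) and Cyp7b1 (−0.95, adjusted p = 0.183). Cyp7b1 read 9.89 on deleted 2 against 11.03 to 11.43 on the other deleted arrays, and its difference was −0.62 without deleted 2 (adjusted p = 0.0661). Among the 5 measured female-biased P450s 3 were lower and 2 higher, and 0 passed (limma, 0 at an unadjusted p under 0.05). Their median of −0.0025 was the value of Cyp2b13, which was dim, as was Cyp3a16 (means of 4.38 and 4.54). Cyp2b9, Cyp17a1 and Cyp3a44 were imprecise, with SEs of 1.11, 0.69 and 0.21. These 5 therefore cannot show whether female-biased P450s changed. Of the 10 listed, the other 5 (Cyp2a4, Cyp2c40, Cyp2c69, Cyp3a41a and Cyp3a41b) lay only on shared probe sets. The set with Cyp2c40 and Cyp2c69 differed by −0.29 and that with Cyp2a4 by −0.28. The sets with Cyp3a41a and Cyp3a41b differed by −0.060 and −0.0175, and 0 of these sets passed. All but the set at −0.060 also hold genes outside the list, so their signal cannot be assigned to female-biased P450s. Of the 7 CAR- and PXR-inducible P450s 4 were lower and 3 higher, with Cyp2c55 the 1 called. Of the 7 measured pericentral P450s 6 were lower with 0 called (limma, 3 lower and 1 higher at an unadjusted p under 0.05). All 7 pericentral P450s had means above 11, a level where 70.8% of all 596 genes were lower. After quantile normalization again 3 of these 7 were lower, with a median of 0.019. The receptors differed by −0.25 for Nr1i2, which encodes PXR (adjusted p = 0.167), and −0.32 for Nr1i3, which encodes CAR (adjusted p = 0.192). Of the 26 measured regulators 13 were lower and 13 higher, and Ppara alone passed (limma, 6 lower and 1 higher at an unadjusted p under 0.05). Without control 1, 19 were lower and 7 higher.

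Of 17 measured electron donors, heme enzymes and epoxide hydrolases 13 were higher and 4 lower, with a median of 0.075 and 0 past the threshold (limma, 1 at an unadjusted p under 0.05). Without control 1, 10 were higher and 7 lower, with a median of 0.018. Alas1, the first enzyme of heme synthesis in liver, was at 12.21, 12.17, 11.83 and 11.89 on deleted 1 to 4 and at 11.29, 12.13, 11.38 and 11.61 on control 1 to 4. Control 2 lay within the deleted range, and the difference was 0.42 (SE 0.17, adjusted p = 0.420). The epoxide hydrolase Ephx1 differed by 0.26 (adjusted p = 0.625) and by 0.11 without control 1, where it read 11.12 against 11.62 to 11.80 on the other controls. The electron donor Cyb5a differed by −0.14 (adjusted p = 0.631), and by −0.093 without deleted 4. Of 18 measured P450s of higher families 12 were lower and 6 higher with 0 past the threshold (limma, 2 lower and 1 higher at an unadjusted p under 0.05), among them the bile acid enzyme Cyp8b1 at −0.41 (adjusted p = 0.161), which passed without control 1 (−0.51, adjusted p = 0.0185).

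The 7 shared probe sets that hold a P450 gene of these families gave 0 calls (limma over all probe sets, 3 at an unadjusted p under 0.05), with adjusted p from 0.368 to 0.995. The set of Cyp2a4 and Cyp2a5, coumarin and steroid hydroxylases, read 11.42, 11.70, 11.35 and 11.38 on deleted 1 to 4 and 11.92, 11.57, 11.77 and 11.70 on control 1 to 4. Its difference of −0.28 (adjusted p = 0.427) was opposite in sign to that of Cyp2a22, and deleted 2 reached into the control range. The single-gene Cyp2a12, a steroid hydroxylase, differed by −0.0050 (95% interval −0.17 to 0.16).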

How the data were processed

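Expression was measured on 8 Affymetrix gene arrays, 1 for each liver sample. Per the labels' protocols, 150 ng of RNA was amplified and labelled with biotin. RMA is named in the submitters' processing notes as the authors' method, one that as a rule corrects background, applies quantile normalization and gives one summary value per probe set. Those notes name neither its version nor its settings. The table deposited by the authors holds log2 intensity values with 2 decimals for 35556 probe sets, of which 21789 have a single gene symbol in GEO's platform annotation, which can be old, 1621 several and 12146 none. Each of 19938 genes was represented by its probe set with the highest mean over the 8 arrays, with no filter on dim genes.

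The 4 deleted and 4 control arrays were compared over all genes by limma (version 3.58.1, R 4.3.3), using lmFit and eBayes with no covariate and 2-sided p-values, with Benjamini-Hochberg adjustment and a threshold of 0.05. Lists and the family are described by counts and medians with no test. Genes named are members past the threshold, the brightest of each of 9 subfamilies, and the 8 largest negative and 8 largest positive differences among members above the median level; up to 3 genes with the smallest p were named per other list. Genes with a wide spread, the sex-linked genes and a few further members were chosen after their values were seen. The members and lists were chosen with earlier results of these data known. On simulated arrays with 19938 genes the script recovered 86.6% of 67 genes changed 1.5-fold, 97.0% of 67 changed 2-fold and 100% of 66 changed 3-fold, with 11 unchanged genes among 200 called. The simulated noise was independent between genes and arrays, without shifts of whole arrays, and the changed genes were picked at random. These shares therefore need not hold for the P450 genes, whose intervals were wider than those of all genes. Python 3.11.15 and matplotlib 3.10.9 were used. Alternatives changed the probe sets, scaling, variance model, weights, block and arrays; the setting without both control 1 and deleted 4 was chosen after the values were seen. Precision is limited by the number of arrays.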

Additional observations from a re-analysis of the deposited data

Results flagged for a closer look

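In groups of 4, a value was singled out where the gap to its nearest neighbour took up most of the group's range. Of the 130 groups of the 65 members, 9 had such a value, where chance gives about 1 in 20, or 6.5. On control 1 there were 6, of which 5 were low. Cyp2j5 read 12.22 there against 12.34 to 12.36 on the other controls, and Cyp3a11 12.17 against 12.72 to 12.81. Cyp4f13 read 10.46 against 10.69 to 10.71, Cyp3a44 7.03 against 8.00 to 8.10, and the vitamin D 25-hydroxylase Cyp2r1 7.75 against 8.44 to 8.56. The dim Cyp2b19 was high on control 1, at 6.02 against 5.79 to 5.81. Among the deleted arrays, Cyp2f2 read 12.71 on deleted 4 against 13.10 to 13.12, Cyp4a10 12.13 on deleted 2 against 11.68 to 11.75, and the dim Cyp2d34 6.03 on deleted 1 against 5.78 to 5.82. The cause was not tested.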

How the results depend on the processing

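With 4 arrays a group, counts of calls moved with single arrays and with scaling. Cyp2c55 was the 1 member past the threshold; the count was 0 with all probe sets tested, with dim genes left out (which removes Cyp2c55), with quantile normalization repeated and with arrays centred, 9 with array weights, and 0 to 6 with 1 array left out. Over all genes 138 passed, against 254 with quantile normalization repeated, 72 with centring, 526 with array weights, 325 with the replicate block, 223 without both control 1 and deleted 4 (a setting chosen after seeing the data), and 37 to 321 with 1 array left out. Of the partner, regulator and other-family genes 1 passed, against 0 with all probe sets or centring, 3 with array weights or without both arrays, and 0 to 3 with 1 array left out.

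Deviations of same-numbered arrays correlated at 0.447, 0.065, −0.081 and 0.422 for numbers 1 to 4, which does not settle whether the numbers mark pairs. The main fit took the arrays as unpaired. Over all genes 325 passed with the replicate block, against 138 without it. The replicate block called 1 member, Cyp2c55 (limma adjusted p = 0.0108).

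With dim genes left out, the median difference was −0.29 for Cyp1a, −0.22 for Cyp2j and −0.19 for Cyp4f, over fewer genes. The Cyp2c median was −0.011 with array weights and −0.22 to −0.017 with 1 array left out, and the Cyp2j median −0.095 to −0.025. Of 377 values for 21 named members over 18 alternatives, 12 changed sign, in 5 members. With quantile normalization repeated, Cyp2a12 was at 0.058 and Cyp3a11 at 0.019. Cyp3a44 was at −0.055 with array weights and −0.16 without both arrays. With 1 array left out, Cyp2a12 ranged from −0.044 to 0.039, Cyp2b10 from −0.15 to 0.48, Cyp3a44 from −0.13 to 0.22 and Cyp2c54 from −0.023 to 0.12. The cause of these shifts was not tested.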
